A study of Caenorhabditis elegans with 36 samples.

Results

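Polysome-associated RNA of *ppp-1(wrm15)* mutants was compared with that of wild-type (WT) *C. elegans*, to find which genes and gene families had more or less RNA on polysomes in the mutant. The members are the loci that carry a single gene name and reach at least 1 FPKM (a read count divided by transcript length and by the size of the library) in *ppp-1(wrm15)* or in WT polysomes. These were 12303 of the 38790 loci with 1 name and of 41875 loci in all. The level of each member was set against WT as log2((*ppp-1(wrm15)* FPKM + 0.1)/(WT FPKM + 0.1)), called the log2 ratio below. The members lie close to the minimum in part, with 1357 of them under 2 FPKM in both groups. At the minimum itself, the lowest member reached 1.00 FPKM in its higher group and the highest locus left out reached 0.998 FPKM.

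The study sequenced 9 groups of synchronized, gravid hermaphrodites at day 1 of adulthood grown on OP50 bacteria, as 3 genotypes by 3 RNA fractions. The genotypes were *ppp-1(wrm15)*, *ppp-1(wrm10)* and WT (Bristol N2), and the fractions were polysomes without disomes, total lysate and monosomes, all depleted of ribosomal RNA. Each group holds 4 libraries, and the deposited table gives 1 value per group, pooled over them. There is therefore no replicate check for any difference in the text, no error or p-value is given, and the depth of the libraries is unknown. Both *ppp-1* alleles are point mutations from a chemical mutagenesis screen for longevity, carried in outcrossed strains, and each allele is represented by 1 strain, so that an allele cannot be told apart from other differences between its strain and N2. Whole animals were lysed, and RNA of the germline, the intestine, the epidermis, muscle and neurons enters 1 value.

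*ppp-1* encodes the gamma subunit of eIF2B, the factor that exchanges GDP for GTP on the translation initiation factor eIF2. Stress-activated kinases, which in the worm are GCN-2 and PEK-1, phosphorylate the alpha subunit of eIF2 and thereby block eIF2B, which lowers initiation on most mRNAs and favours a few such as that of the transcription factor ATF4. This is the integrated stress response. An mRNA carrying several ribosomes sediments with polysomes, so that its polysome level depends on how much of it there is and on how densely it is translated. In a day 1 adult hermaphrodite, spermatogenesis has ended, sperm are stored in the spermatheca, and the gonad makes oocytes.

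Most members had nearly the same polysome level in both genotypes. The median log2 ratio was -0.02 (quartiles -0.16 and 0.15), and 87.0% of members lay within 1.5-fold. At least 2-fold higher in *ppp-1(wrm15)* were 561 members (4.56% of all members), and at least 2-fold lower were 152 (1.24%). Past 4-fold there were 184 higher and 49 lower members. Of the 12303 members, 11809 matched a protein-coding gene of the reference annotation, and of these 499 were at least 2-fold higher (4.23%) and 101 at least 2-fold lower (0.855%).

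**Figure D1:**
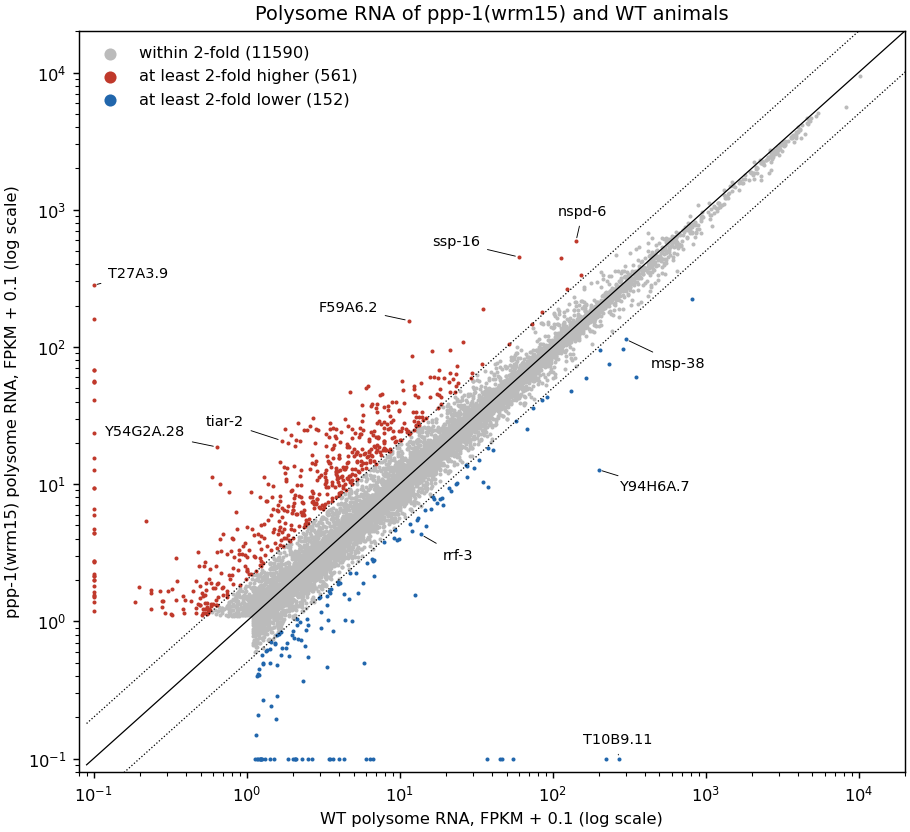
Each point is 1 of 12303 members, placed by its WT polysome level on the x axis and its *ppp-1(wrm15)* polysome level on the y axis, both as FPKM + 0.1 on log scales; the solid line marks equal levels and the dotted lines 2-fold. The 561 higher members (red) lie mostly between 1 and 100 FPKM in *ppp-1(wrm15)*, and points on the left and lower edges are loci listed at 0 in 1 group.

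The protein-coding genes that were higher were of low to moderate level. Their median polysome level was 11.1 FPKM in *ppp-1(wrm15)* and 3.17 FPKM in WT animals, while the medians of all protein-coding members were 12.9 FPKM in *ppp-1(wrm15)* and 12.1 FPKM in WT animals. Among genes with a mean of both groups between 10 and 100 FPKM, 190 of 5434 were at least 2-fold higher and 25 were at least 2-fold lower. Above 100 FPKM, only 3 of 1168 were higher and 5 were lower. The log2 ratios also spread less at high levels, with quartiles of -0.30 and 0.35 for means under 2 FPKM and of -0.13 and 0.12 between 10 and 100 FPKM. Of the 499 higher genes, 399 (80.0%) are listed by a sequence name only, against 48.5% of all protein-coding members.

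The largest ratios of all belonged mostly to non-coding loci and rest on values of 0. Among members with at least 10 FPKM in 1 group, 11 of the 15 highest ratios came from loci listed at 0 in WT and 6 of the 15 lowest from loci listed at 0 in *ppp-1(wrm15)*, so no fold is given for them. Many of them are small nucleolar RNAs (snoRNAs), which guide the modification of ribosomal RNA. The snoRNA T27A3.9 had 282 FPKM in *ppp-1(wrm15)* polysomes and is listed at 0 in WT, whereas T10B9.11 is listed at 0 in *ppp-1(wrm15)* and had 270 FPKM in WT. In total RNA both were present in both genotypes, at 1052 and 692 FPKM for T27A3.9 and at 1717 and 1260 FPKM for T10B9.11, with *ppp-1(wrm15)* first in each pair. Of 113 snoRNA members, 19 were at least 2-fold higher and 17 lower, so they spread in both directions around a median log2 ratio of 0.02. The 6 members of the *sls* class, spliced leader RNAs, had a median log2 ratio of -4.37, with 4 lower and 2 higher past 2-fold. In all, 66 members were listed at 0 in 1 group, 10 of them protein-coding. Among the 7 long intergenic non-coding RNAs (lincRNAs) by annotation, 3 were higher and 1 was lower. The highest of these, *linc-18*, had 11.2 FPKM in *ppp-1(wrm15)* and 0.490 FPKM in WT polysomes. It passed the minimum only through *ppp-1(wrm15)*, where it is high. The shares to set beside these counts are 4.56% of all members at least 2-fold higher and 1.24% lower.

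The X chromosome held almost none of the genes that were higher. Of 1591 X-linked protein-coding members, 6 were at least 2-fold higher in *ppp-1(wrm15)* polysomes (0.377%), against 493 of 10218 on the autosomes (4.82%). The autosomes ranged only between 4.09% on chromosome V and 5.73% on chromosome IV. The difference in share was present at matched levels. Between 2 and 10 FPKM, 1 of 740 X-linked genes and 204 of 3010 other genes were higher, and between 10 and 100 FPKM it was none of 452 against 190 of 4982. The shares of lower genes were 0.314% on X, 0.313% on chromosome III and 1.56% on chromosome V. As background, genes expressed in the male germline are rare on the worm X chromosome, and genes of the oogenic germline and soma are less so. The 6 X-linked genes include *lpr-7*, with 2.23 FPKM in *ppp-1(wrm15)* and 1.06 FPKM in WT animals, and none of them reached 5 FPKM.

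**Figure D2:**
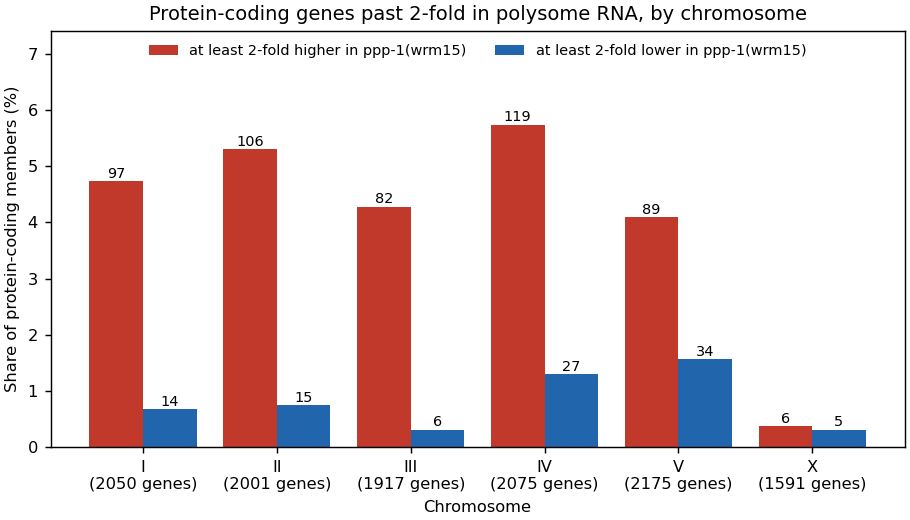
Bars show the share of protein-coding members on each chromosome, in percent, that were at least 2-fold higher (red) or lower (blue) in *ppp-1(wrm15)* than in WT polysomes, with their number above. The 5 autosomes reach 4.09% to 5.73% higher genes and X reaches 0.377%.

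Some genes with sperm-associated names were several-fold higher at high levels, while their families moved in both directions. *ssp-16*, which encodes a small sperm-specific protein, had 452 FPKM in *ppp-1(wrm15)* and 60.1 FPKM in WT polysomes, a 7.53-fold difference. *nspd-6*, a member of the sperm-enriched nspd class of nematode-specific peptides, had 589 FPKM in *ppp-1(wrm15)* and 142 FPKM in WT polysomes. F59A6.2, which has no class name, had 155 FPKM in *ppp-1(wrm15)* and 11.4 FPKM in WT polysomes. These 3 were high in all fractions of the mutant, *ssp-16* for example with 369 FPKM in *ppp-1(wrm15)* and 52.3 FPKM in WT total RNA. Because whole animals were lysed, more cells of a type cannot be told apart from more RNA per cell, here or for any later gene group.

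Among 25 spermatogenesis genes (23 *spe* genes, *fer-1* and *gsp-3*), 4 were at least 2-fold higher and none was lower, against 4.23% and 0.855% of all protein-coding members past 2-fold in each direction, with a median log2 ratio of 0.28 against -0.02 over all members. *spe-38*, which encodes a tetraspan sperm protein needed at fertilization, had 7.43 FPKM in *ppp-1(wrm15)* and 1.24 FPKM in WT polysomes. *spe-19*, needed for the activation of spermatids, had a log2 ratio of 1.37. The transcription regulator *spe-44*, which acts at the start of sperm differentiation, had 6.04 FPKM in *ppp-1(wrm15)* and 2.24 FPKM in WT polysomes, but 16.1 and 13.8 FPKM in total RNA. The sperm phosphatase subunit *gsp-3*, by contrast, stood at 76.4 FPKM in *ppp-1(wrm15)* and 97.1 FPKM in WT polysomes. Of the 25, 14 were higher and 11 lower than in WT.

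Several kinase and phosphatase genes were higher. Of 19 genes of the *kin* class, 4 were at least 2-fold higher and none was lower, against 4.23% and 0.855% of all protein-coding members. These 4, of which *kin-31* had no match in the annotation, encode non-receptor tyrosine kinases of the Fer type. *kin-31* had 24.8 FPKM in *ppp-1(wrm15)* and 2.26 FPKM in WT polysomes. *kin-24*, *kin-21* and *kin-26* had 11.9 to 13.9 FPKM in *ppp-1(wrm15)* and 2.71 to 3.2 FPKM in WT polysomes. The other 15 members of the class stayed within 2-fold, among them the casein kinase II gene *kin-3* with 172 FPKM in *ppp-1(wrm15)* and 181 FPKM in WT polysomes. The tau tubulin kinase genes, *ttbk-4* (W01B6.2) and *ttbk-5* (C04G2.2), had log2 ratios of 1.18 and 1.00. The tyrosine phosphatase genes *ptp-5.1* (C24D10.1) and *ptp-5.2* (Y57G11C.6) had 25.4 and 21.6 FPKM in *ppp-1(wrm15)*, against 10.3 and 7.1 FPKM in WT polysomes. The phosphatase gene *pph-2* had a log2 ratio of 1.79. These genes were named after their values were seen, and kinases and phosphatases were not counted as a group.

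The gene classes with the highest medians, among 276 classes of at least 5 members, were *mpz*, *irld* and *scrm*, the only 3 with a median log2 ratio of at least 0.5. Of the 5 *mpz* genes, which encode proteins with several PDZ domains, 3 were at least 2-fold higher, and *mpz-3* had 27.5 FPKM in *ppp-1(wrm15)* and 8.2 FPKM in WT polysomes. The products of *irld* genes carry a receptor L domain as in the insulin and EGF receptors. Of 65 *irld* loci, 9 passed the minimum, all were higher, and 4 were so by at least 2-fold. Being higher helps a low gene pass, and *irld-57* passed only through *ppp-1(wrm15)*. Of all protein-coding members 4.23% were at least 2-fold higher, and both classes were described after their values were seen. *irld-57* had 8.66 FPKM in *ppp-1(wrm15)* and 0.664 FPKM in WT polysomes, and *irld-14* had 52.1 FPKM and 12.3 FPKM. The 6 scramblase-like *scrm* genes had a median of 0.51 with none past 2-fold. Of 89 C-type lectin genes, 13 were at least 2-fold higher and 1 was lower, against 4.23% and 0.855% of all protein-coding members, the median was -0.03, and the most abundant, *clec-63*, had 736 FPKM in *ppp-1(wrm15)* and 792 FPKM in WT polysomes. Among the higher lectin genes, *clec-166* had 18 FPKM in *ppp-1(wrm15)* and 7.93 FPKM in WT polysomes. The higher lectin genes also include *clec-207* and *clec-208*, which passed the minimum only through *ppp-1(wrm15)*.

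Most markers of the male body were under the minimum. Of 10 male soma and seminal fluid markers, 3 passed the minimum, and these summed to 20.5 FPKM in *ppp-1(wrm15)* and 24 FPKM in WT polysomes. *swm-1* had 16.5 FPKM in *ppp-1(wrm15)* and 23.2 FPKM in WT polysomes. The seminal fluid lectins *clec-207* and *clec-208* had 2.43 and 1.58 FPKM in *ppp-1(wrm15)*, against 0.430 and 0.345 FPKM in WT polysomes. Both passed the minimum only through *ppp-1(wrm15)*, where they are high, and both are also counted among the higher C-type lectin genes above. *lov-1*, *pkd-2* and *try-5* were under 1 FPKM in both genotypes. The part of such cells in the sperm-associated levels was not tested.

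**Figure D3:**
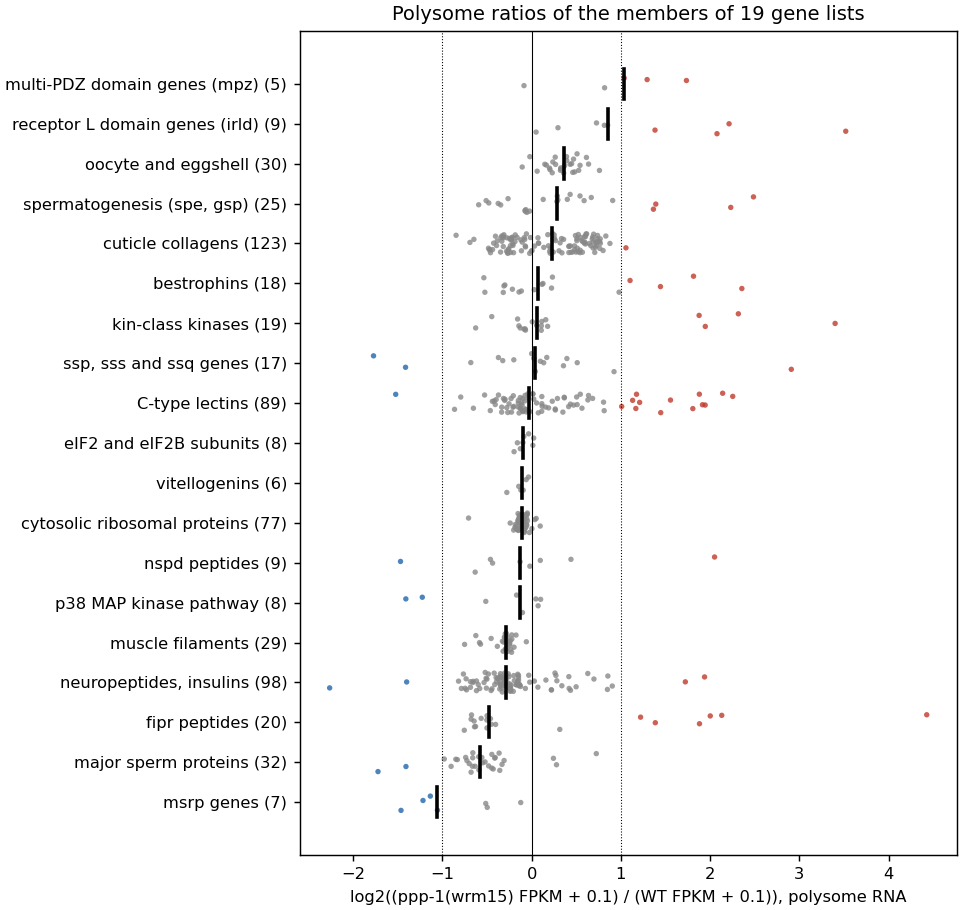
Points are the polysome log2 ratios of single members in 19 gene lists (number of members in brackets) and black bars are list medians; red and blue points lie at least 2-fold above or below WT, and dotted lines mark 2-fold. The *msrp* genes have the lowest median at -1.05 and the *mpz* genes the highest at 1.04, while the 8 eIF2 and eIF2B subunits lie close to 0. Some lists, *msrp* and *mpz* among them, were written after values were seen.

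Several other single genes of the same level were higher. *his-70*, a histone H3 variant, had 67.9 FPKM in *ppp-1(wrm15)* and 17.9 FPKM in WT polysomes, whereas the median of 43 histone genes was 0.07 on the log2 scale. *cpb-2*, a CPEB-type RNA-binding protein, had 28 FPKM in *ppp-1(wrm15)* and 8.63 FPKM in WT polysomes. *dlc-6*, a dynein light chain, had a log2 ratio of 3.07, and *klp-17*, a kinesin, one of 2.06. *cbs-2* and *cysl-4*, of the families that make and use cystathionine and cysteine, had log2 ratios of 2.31 and 2.03. The Argonaute gene *vsra-1* (C04F12.1) had 17.2 FPKM in *ppp-1(wrm15)* and 8.38 FPKM in WT polysomes, and it was the only one of 21 Argonaute genes past 2-fold. *alg-3* and *alg-4*, the Argonautes of spermatogenesis, had log2 ratios of 0.50 and 0.28.

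The major sperm protein (MSP) genes went the other way. MSP is the cytoskeletal protein that drives crawling of nematode sperm and also signals to oocytes. Of 32 *msp* members, 29 were lower and 3 higher in *ppp-1(wrm15)*, with a median log2 ratio of -0.57 and a summed level of 6796 FPKM in *ppp-1(wrm15)* and 10093 FPKM in WT polysomes. Past 2-fold were *msp-38*, with 114 FPKM in *ppp-1(wrm15)* and 301 FPKM in WT polysomes, and *msp-58*, with 1.52 FPKM and 5.23 FPKM. In total RNA the median log2 ratio of the same 32 genes was -0.06. The 7 *msrp* genes showed the same order of values, with a median of -1.05 in polysomes and -0.10 in total RNA, and 4 of them were at least 2-fold lower. Of all protein-coding members 0.855% were at least 2-fold lower, and the *msrp* list was written after values were seen. *msrp-1* had 47.6 FPKM in *ppp-1(wrm15)* and 131 FPKM in WT polysomes. Genes of these families are near copies of each other, and how the reads they share were counted is not given in the sources used here.

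Within the small sperm peptide classes, members differed in direction. Of 17 *ssp*, *sss* and *ssq* genes, *ssp-16* was higher, *ssp-19* and *sss-1* were at least 2-fold lower, and the median log2 ratio was 0.04. *ssp-19* had 10.2 FPKM in *ppp-1(wrm15)* and 35.2 FPKM in WT polysomes. *sss-1* had 25.3 FPKM in *ppp-1(wrm15)* and 67.6 FPKM in WT polysomes, with 101 and 123 FPKM in total RNA. Of 9 *nspd* genes, *nspd-6* was higher, *nspd-10* was lower with 59.7 FPKM in *ppp-1(wrm15)* and 165 FPKM in WT polysomes, and the other 7 lay within 2-fold. The 56 sperm markers that passed the minimum summed to 7151 FPKM in *ppp-1(wrm15)* and 10433 FPKM in WT polysomes, with 4 higher and 2 lower past 2-fold. Over all protein-coding members, 4.23% were at least 2-fold higher and 0.855% lower. Without the 32 *msp* genes, the other 24 sperm markers summed to 354 FPKM in *ppp-1(wrm15)* and 340 FPKM in WT polysomes, with a median log2 ratio of 0.29.

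*rrf-3* was at least 2-fold lower in both polysomes and total RNA. It encodes an RNA-dependent RNA polymerase that makes endogenous small RNAs with ERI proteins and is needed for fertile sperm at elevated temperature. Its polysome level was 4.20 FPKM in *ppp-1(wrm15)*, 3.89 FPKM in *ppp-1(wrm10)* and 13.7 FPKM in WT animals. In total RNA it was 8.63 FPKM in *ppp-1(wrm15)*, 9.36 FPKM in *ppp-1(wrm10)* and 22 FPKM in WT. The other 10 members of a list of ERI and ALG-3/4 pathway genes, written after values were seen, lay within 2-fold, with *eri-3* at a log2 ratio of 0.33. *rrf-3* lies on chromosome II (8162465 to 8168644 in WBcel235), 1.19 Mb from *ppp-1*. The parent strain of the screen carried a mutation in *fer-15*, a gene now named *rrf-3*, and whether it persisted in the outcrossed strains and had a part in these levels was not tested. That strain also carried a *fem-1* mutation, and *fem-1* had 18.5 FPKM in *ppp-1(wrm15)* and 18 FPKM in WT polysomes. These levels do not show whether the *fem-1* mutation persisted.

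Oocyte and eggshell genes were higher by small amounts. Of 30 such genes, 28 were higher and 2 lower, none past 2-fold, and the median log2 ratio was 0.36 in polysomes and 0.16 in total RNA. *pos-1*, which encodes a zinc finger protein that controls maternal mRNAs, had 44.6 FPKM in *ppp-1(wrm15)*, 35.9 FPKM in *ppp-1(wrm10)* and 26.3 FPKM in WT polysomes. *spn-4* and *oma-2*, of similar function, had log2 ratios of 0.64 and 0.61. The eggshell chondroitin proteoglycan genes *cpg-1* and *cpg-2* had 571 and 627 FPKM in *ppp-1(wrm15)*, 379 and 439 FPKM in *ppp-1(wrm10)*, and 418 and 449 FPKM in WT polysomes. Over the list, the median log2 ratio against the same WT libraries was -0.04 in *ppp-1(wrm10)*. Whether the alleles differ here was not tested.

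Cuticle collagens split by level. Of 123 members, 73 were higher and 50 lower, and only *col-152* was past 2-fold, with 8.21 FPKM in *ppp-1(wrm15)* and 3.89 FPKM in WT polysomes. Of the 23 with a mean over 500 FPKM, 22 were lower, with a median log2 ratio of -0.26. *col-124* had 3336 FPKM in *ppp-1(wrm15)* and 4203 FPKM in WT polysomes, and *col-139* had 1947 FPKM and 2679 FPKM. Of the 62 with a mean up to 100 FPKM, 47 were higher, with a median of 0.39. Of the 38 between these levels, 25 were higher and 13 lower, with a median of 0.36. The highest ratio of these was that of *col-49*, with 150 FPKM in *ppp-1(wrm15)* and 84.0 FPKM in WT polysomes. The lowest was that of *col-149*, with 211 FPKM in *ppp-1(wrm15)* and 379 FPKM in WT polysomes. Genes of the moult and the apical matrix (24 members, median 0.29) and hedgehog-related and Patched-related genes (48 members, median 0.26) were shifted in the same direction as the less abundant collagens, with no member past 2-fold. *cut-2*, a cuticulin, had 56.6 FPKM in *ppp-1(wrm15)* and 33 FPKM in WT polysomes.

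Single genes of defence and detoxification were lower, while genes past 2-fold in these families went both ways. Past 2-fold, 0.855% of all protein-coding members were lower and 4.23% higher. Of 24 *irg*, *dod* and *pals* genes, 3 were at least 2-fold lower and 1 was higher. Of 68 lysozymes, saposins and antimicrobial peptides, 1 was lower and 7 were higher, of 40 cytochrome P450 genes none was lower and 1 higher, and of 45 UDP-glucuronosyltransferase genes 1 was lower and none higher. *irg-1*, an infection response gene, had 7 FPKM in *ppp-1(wrm15)*, 7.70 FPKM in *ppp-1(wrm10)* and 19.2 FPKM in WT polysomes. The CUB-like genes *dod-17* and *dod-22* on chromosome IV had log2 ratios of -1.02 and -1.21. The ABC transporter genes *pgp-5* and *pgp-6*, which are neighbours on X, had 7.78 and 11.1 FPKM in *ppp-1(wrm15)*, against 18.8 and 27.4 FPKM in WT polysomes, and were the only 2 of 12 *pgp* members past 2-fold. The *pgp* list was written after values were seen. *ugt-26*, a UDP-glucuronosyltransferase, had 41 FPKM in *ppp-1(wrm15)* and 84.8 FPKM in WT polysomes. All of these were lower in total RNA too, with log2 ratios of -0.76 to -1.23. The 5 intestinal markers summed to 3336 FPKM in *ppp-1(wrm15)* and 3489 FPKM in WT polysomes, and a longer list of 11 intestinal transcripts to 3974 FPKM in *ppp-1(wrm15)* and 4485 FPKM in WT polysomes, with 4 higher and 7 lower. The part of intestinal RNA in these levels was not tested. T13F3.6, which has no class name, had the highest WT polysome level of the 101 lower protein-coding genes after *msp-38*, with 96.2 FPKM in *ppp-1(wrm15)* and 287 FPKM in WT polysomes.

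Antifungal-type peptides showed both directions. Of 20 *fipr* (fungus-induced protein related) genes, 6 were at least 2-fold higher, against 4.23% of all protein-coding members. Yet their median log2 ratio was -0.48. *fipr-17* had 6.36 FPKM in *ppp-1(wrm15)* and 1.65 FPKM in WT polysomes, while the abundant *fipr-21* had 407 FPKM and 538 FPKM. *fipr-19*, with 2.05 FPKM in *ppp-1(wrm15)*, is listed at 0 in WT polysomes, so it passed the minimum only through the mutant. The list of lysozymes, saposins and antimicrobial peptides above has the same highest log2 ratio, 4.43. The lists share this gene, so their counts of higher genes are not separate. The 6 higher *fipr* genes were all under 7 FPKM, and the *fipr* list was written after values were seen.

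The translation machinery itself was close to WT. The 8 subunits of eIF2 and eIF2B had log2 ratios between -0.20 and 0.02. *ppp-1*, listed as *eif-2Bgamma*, had 31.1 FPKM in *ppp-1(wrm15)* and 33 FPKM in WT polysomes, which does not check the genotype because the allele is a point mutation. *eif-2alpha* had 258 FPKM in *ppp-1(wrm15)* and 253 FPKM in WT polysomes, and *eif-2beta* had 229 FPKM and 263 FPKM. The eIF2 kinase genes *gcn-2* and *pek-1* had 14.4 and 11.9 FPKM in *ppp-1(wrm15)*, against 13.7 and 10.5 FPKM in WT polysomes. *atf-5*, the worm ATF4 gene, had 9.87 FPKM in *ppp-1(wrm15)* and 12 FPKM in WT polysomes. *kin-35*, listed as M04F3.3 and encoding a putative kinase, was the only one of these named genes past 2-fold. It had 10.3 FPKM in *ppp-1(wrm15)* and 4.67 FPKM in WT polysomes, 8.51 and 6.08 FPKM in total RNA, and 12.2 and 6.31 FPKM in monosomes. The 77 cytosolic ribosomal proteins had a median log2 ratio of -0.11 with 73 lower, and the 65 mitochondrial ones a median of -0.17 with all lower. *eef-1A.1*, which encodes the elongation factor that brings aminoacyl-tRNA to the ribosome, had 9451 FPKM in *ppp-1(wrm15)* and 10280 FPKM in WT polysomes.

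Muscle filament, neuropeptide and mitochondrial transcripts were slightly lower as groups. All 29 genes of a muscle filament list were lower, with a median log2 ratio of -0.28 in polysomes and -0.16 in total RNA. That list also holds the actin gene *act-5*, which is counted among the intestinal transcripts above too. The myosin heavy chain gene *unc-54* had 726 FPKM in *ppp-1(wrm15)* and 911 FPKM in WT polysomes, and the pharyngeal myosin gene *myo-2* had 19.6 FPKM and 30.3 FPKM. Of 98 neuropeptide and insulin-like genes, 78 were lower, with a median of -0.28. Past 2-fold, 2 were higher and 2 lower, against 4.23% and 0.855% of all protein-coding members. The 4 neuron markers summed to 75.1 FPKM in *ppp-1(wrm15)* and 71.7 FPKM in WT polysomes, with a median log2 ratio of -0.11. In a longer list of 11 neuron transcripts, 10 were lower, with a median of -0.20. Of 8 members from the mitochondrial genome 7 were lower, and the cytochrome c oxidase gene *ctc-1* had 636 FPKM in *ppp-1(wrm15)* and 853 FPKM in WT polysomes. The lower ones include the ribosomal RNAs MTCE.7 and MTCE.33, in libraries depleted of ribosomal RNA. MTCE.7 had a log2 ratio of -0.58 in polysomes and 0.58 in total RNA. Because the FPKM summed over all loci was lower in *ppp-1(wrm15)* polysomes (868588) than in WT polysomes (917491), a shift of 0.08 on the log2 scale across all genes depends on the scaling. The 6 vitellogenin genes, which encode yolk proteins made in the intestine, had log2 ratios between -0.28 and -0.03.

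Polysome and total RNA were set side by side to see which polysome differences were also present in the lysate. The fractions came from the same lysates, so their values are not independent. Of the 499 protein-coding genes that were at least 2-fold higher in polysomes, 406 were at least 2-fold higher in total RNA, where 558 of all protein-coding members (4.73%) were. In monosomes 434 of the 499 were at least 2-fold higher, where 707 of all (5.99%) were. Their median log2 ratio was 1.62 in polysomes, 1.55 in total RNA and 1.90 in monosomes. Of the 101 lower genes, 33 were at least 2-fold lower in total RNA, where 72 of all (0.610%) were, and 32 in monosomes, where 95 of all (0.804%) were. Their median log2 ratio was -1.29 in polysomes and -0.71 in total RNA. The lower genes thus had a median difference of -0.67 between polysome and total log2 ratio, and the higher genes one of 0.09. Part of these differences follows from choosing the genes by their polysome ratio.

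**Figure D4:**
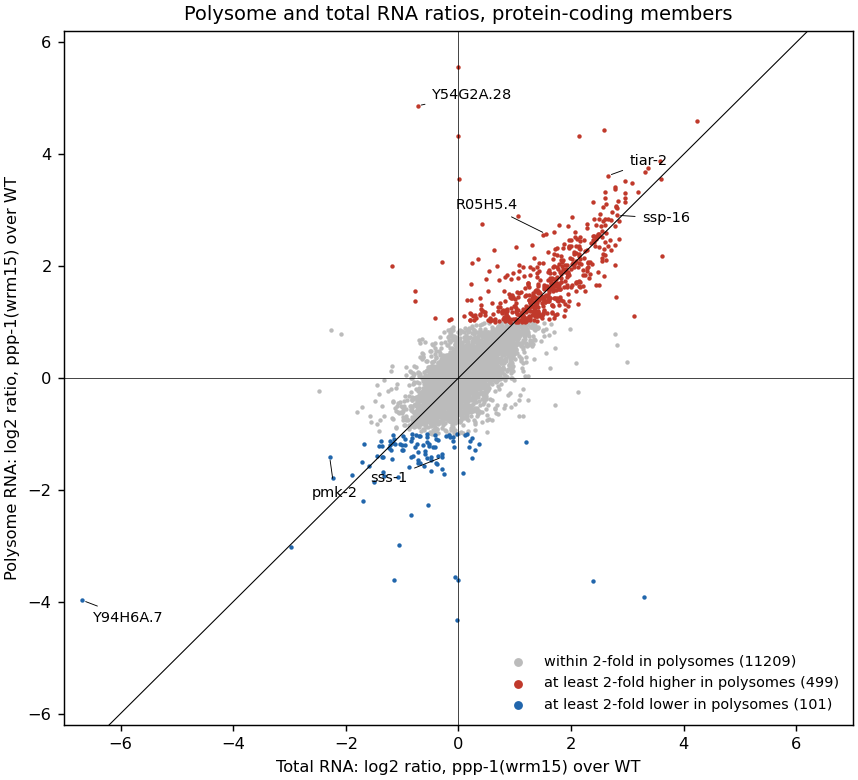
Each point is a protein-coding member, with its total RNA log2 ratio (*ppp-1(wrm15)* over WT) on the x axis and its polysome log2 ratio on the y axis; the diagonal marks equal ratios. The 499 higher genes (red) lie along the diagonal and most of the 101 lower genes (blue) lie below it, with Y94H6A.7 and Y54G2A.28 far from the rest.

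The difference of the log2 ratios, polysome minus total, exceeded 1 in 115 members (0.935%), and was below -1 in 137 (1.11%), most of them low or non-coding. Among 6299 protein-coding genes with at least 10 FPKM in 1 group of each fraction, it did so in 3 (0.0476%) and 6 (0.0953%). The 3 were Y94H6A.7, C33A12.3 and R05H5.4. R05H5.4 had 44.3 FPKM in *ppp-1(wrm15)* and 7.34 FPKM in WT polysomes, and 43.9 and 14.9 FPKM in total RNA. C33A12.3 had 40.3 FPKM in *ppp-1(wrm15)* and 44.1 FPKM in WT polysomes, and 43.5 and 118.5 FPKM in total RNA, so that its difference lay in total RNA. The 6 were *msrp-3*, *sss-1*, C16A11.7, F49D11.7, Y39B6A.5 and Y75B8A.23. *msrp-3* had 15.0 FPKM in *ppp-1(wrm15)* and 32.9 FPKM in WT polysomes, and 34.1 and 29.5 FPKM in total RNA.

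The other *ppp-1* allele is set against the same WT libraries, so its values stand beside those of *ppp-1(wrm15)* and are no separate result. *ssp-16* had 452 FPKM in *ppp-1(wrm15)*, 410 FPKM in *ppp-1(wrm10)* and 60.1 FPKM in WT polysomes. *kin-31* had 24.8, 22.8 and 2.26 FPKM, and *msp-38* had 114, 117 and 301 FPKM, in the same order of genotypes. Some genes had unlike values in the alleles. Among protein-coding members above 0 in both groups and with at least 5 FPKM in 1 of them, 11 were past 2-fold in *ppp-1(wrm15)* while the *ppp-1(wrm10)* log2 ratio stayed short of 0.5 in that direction. Whether the alleles differ was not tested.

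The p38 MAP kinase gene *pmk-1* was among these 11, and its operon partners are given beside it. *pmk-3*, *pmk-2* and *pmk-1* lie next to each other on chromosome IV (8139219 to 8151156 in WBcel235) and are transcribed as 1 operon, and PMK-1 drives intestinal immunity. *pmk-1* had 9.93 FPKM in *ppp-1(wrm15)*, 21.5 FPKM in *ppp-1(wrm10)* and 23.3 FPKM in WT polysomes. *pmk-2* had 0.842 FPKM in *ppp-1(wrm15)*, 2.87 FPKM in *ppp-1(wrm10)* and 2.40 FPKM in WT polysomes, and *pmk-3* had 6.81, 9.22 and 9.76 FPKM in the same order. In total RNA the 3 genes had log2 ratios of -1.41, -2.29 and -1.72 for *pmk-1*, *pmk-2* and *pmk-3*. Of their neighbours, *islo-1* had 1.08 FPKM in *ppp-1(wrm15)*, 1.74 FPKM in *ppp-1(wrm10)* and 1.73 FPKM in WT polysomes, with a log2 ratio of -1.01 in total RNA. *faah-2*, on the other side, had 39.8 FPKM in *ppp-1(wrm15)* and 35.3 FPKM in WT polysomes. The other 5 genes of the pathway list lay within 2-fold, among them the kinase gene *sek-1* at a log2 ratio of 0.10. Of 9 genes often used as readouts of PMK-1, 7 were lower, with a median log2 ratio of -0.37 in *ppp-1(wrm15)* and -0.50 in *ppp-1(wrm10)*. Both lists were written after values were seen.

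A few single genes, picked after their values were seen, were higher in *ppp-1(wrm15)* than in either other genotype. *tiar-2*, a TIA-1-type RNA-binding protein gene on chromosome II, had 20.7 FPKM in *ppp-1(wrm15)*, 1.32 FPKM in *ppp-1(wrm10)* and 1.59 FPKM in WT polysomes. The metallothionein gene *mtl-1* had 1.68 FPKM in *ppp-1(wrm15)*, 0.231 FPKM in *ppp-1(wrm10)* and 0.0977 FPKM in WT polysomes. The flavin monooxygenase gene *fmo-2* had 1.62, 0.300 and 0.227 FPKM, and *pud-1.2* had 16.5, 5.41 and 5.07 FPKM, in the same order of genotypes. In monosomes *pud-1.2* had the opposite order, with 4.24, 9.89 and 18.2 FPKM. *dod-3*, a gene under DAF-16, had 4.36 FPKM in *ppp-1(wrm15)*, 2.16 FPKM in *ppp-1(wrm10)* and 1.38 FPKM in WT polysomes. The long non-coding RNA *tts-1* had 1.66, 0.252 and 0.524 FPKM in polysomes and 52.4, 13.4 and 12.3 FPKM in total RNA, in that order. Except for *tiar-2* and *pud-1.2*, these genes were under 5 FPKM in polysomes of every genotype. The 21 members of the DAF-16 and longevity list had a median log2 ratio of 0.22 in *ppp-1(wrm15)* and 0.04 in *ppp-1(wrm10)*. Past 2-fold in *ppp-1(wrm15)* were 2 of them, *mtl-1* and *dod-3*, against 4.23% of all protein-coding members higher. *dod-3* is also the 1 higher gene of the *irg*, *dod* and *pals* list. *mtl-1*, *fmo-2* and *tts-1* passed the minimum only through *ppp-1(wrm15)*, where they are high. The list of 10 mitochondrial stress genes that holds *fmo-2* had a median of -0.09 with 7 lower, 19 cytosolic heat shock genes had a median of -0.08 with 14 lower, and 10 SKN-1 detoxification genes had a median of -0.17 with 8 lower.

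**Figure D5:**
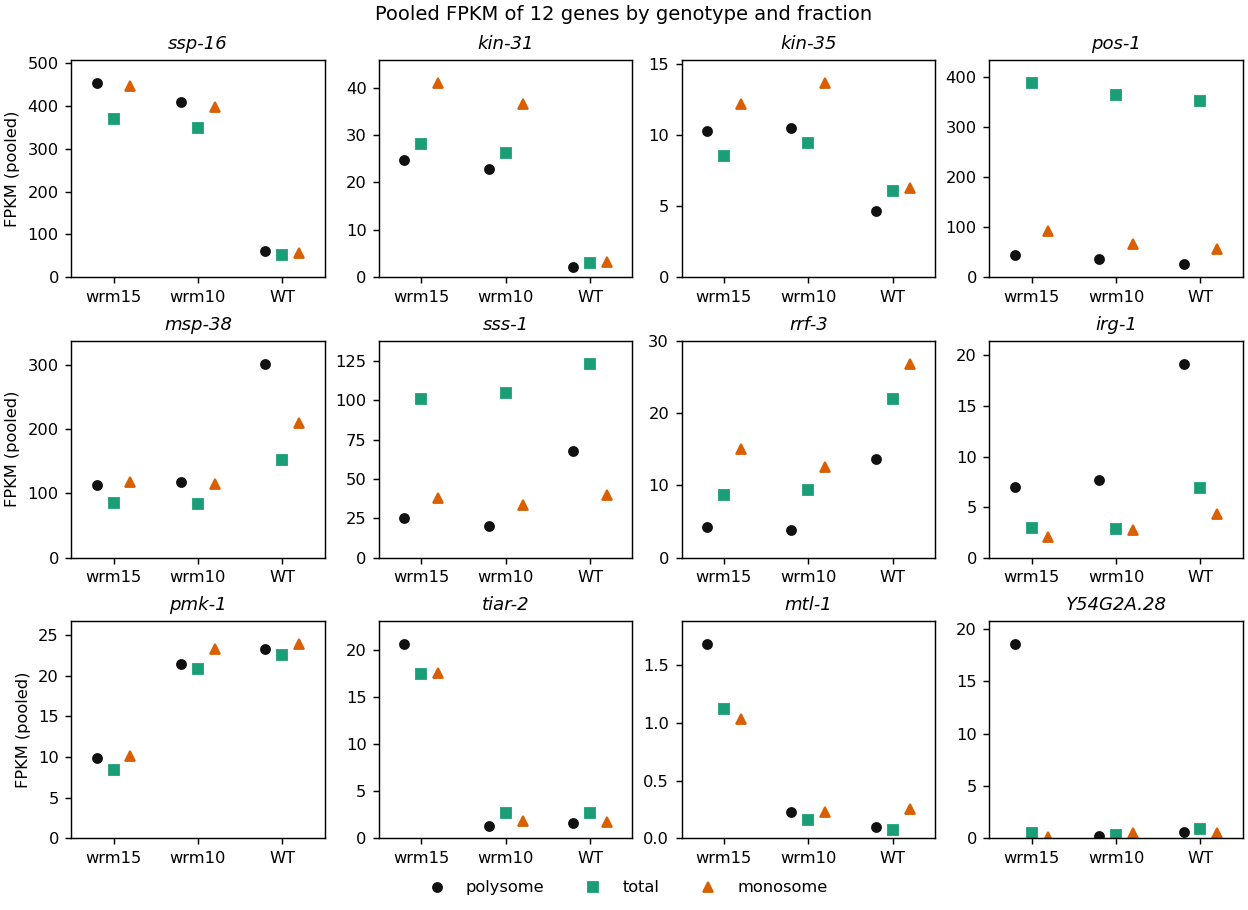
Pooled FPKM (y axis, linear from 0) of 12 genes in *ppp-1(wrm15)*, *ppp-1(wrm10)* and WT animals, with circles for polysomes, squares for total RNA and triangles for monosomes; each marker is 1 pooled value, so there are no error bars. *ssp-16* and *kin-31* are high in both alleles, *msp-38* and *rrf-3* are low in both, and *pmk-1* and *tiar-2* differ from WT in *ppp-1(wrm15)* only.

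A pair of protein-coding genes had ratios that rest on 1 or 2 groups. Y54G2A.28 had 18.6 FPKM in *ppp-1(wrm15)* polysomes and under 1 FPKM in each of the other 8 groups, 0.539 FPKM in WT polysomes among them. Y94H6A.7 had 12.6 FPKM in *ppp-1(wrm15)* and 200 FPKM in WT polysomes, 11.2 and 1157 FPKM in total RNA, and 6.17 and 8.48 FPKM in monosomes. Whether 1 library of a group carries such a value cannot be seen in pooled values.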

How the data were processed

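The authors aligned reads to WBcel235 with HISAT2 (2.1.0), assembled transcripts with StringTie (1.3.4d) and compared groups with Cuffdiff of Cufflinks (2.2.1), per the labels and the study's methods. The values the authors deposited are FPKM, 1 per locus and group, pooled over 4 libraries and normalized in their run. The sources used here do not give the library normalization, the strand setting or the depth per library. The deposited table also holds the authors' log2 fold changes, test statistics, p-values and q-values for 36 pairs of groups, which were not used.

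From the FPKM values, log2 ratios were computed with a pseudocount of 0.1 FPKM in Python 3.11.15 (pandas 2.3.3, numpy 2.4.6), for loci with 1 name and at least 1 FPKM in *ppp-1(wrm15)* or WT polysomes. The pseudocount understates the change of low genes. A member was called past 2-fold, that is at a log2 ratio of 1 or more in size, with no test, because a group has 1 value. Loci were matched to the WBcel235 annotation of Ensembl 115 by symbol, identifier or sequence name with overlapping position, which placed 12144 of 12303 members. Loci that join several gene names (3085) were left out. Coordinates are the files' own, 1-based.

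Genes named in the text are the eIF2, ISR and *kin-35* genes, the 15 highest and 15 lowest ratios among members with at least 10 FPKM in 1 group, the 10 largest rises and falls in FPKM, up to 4 members of each list, and up to 10 members at either end of the polysome minus total difference. Because the extremes were mostly short non-coding loci, the same rules were also applied to protein-coding genes above 0 in both groups, and a few genes were added after their values were seen. The members and lists were chosen with earlier results of these data known. The ratio step was tested on simulated data with known folds. Alternatives changed the pseudocount, the minimum, the scaling, the loci and the fold.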

Additional observations from a re-analysis of the deposited data

How the results depend on the processing

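No paired analysis was possible because the table gives 1 pooled value per group, and for the same reason no replicate could be left out. The main counts were 561 higher and 152 lower members, and 115 and 137 members were past 2-fold for the polysome minus total difference. The fold used moved all 4 counts, to 1070 and 526, and 343 and 443, at 1.5-fold, and to 184 and 49, and 48 and 47, at 4-fold. With no minimum they were 922 and 380, and 533 and 486. With at least 5 FPKM in 1 group, 65 members were lower, and 33 and 35 passed for the difference. With a pseudocount of 1 FPKM, 94 members were lower, and 61 and 77 passed for the difference. For protein-coding loci only, 101 were lower, and 65 and 80 passed for the difference. Every other setting kept the 4 counts within 1.5 times, including rescaling to the same FPKM sum (604 and 132) and leaving out loci listed at 0 in 1 group (528 higher, added after seeing the data). The median log2 ratio over members lay between -0.02 and 0.06 in all settings, and rescaling turned its sign. The X-linked share of higher genes was 0 to 3.08% and the autosomal share 1.44% to 9.03% over the settings, each time lower on X. Of 476 medians of 60 gene lists under the alternatives, 22 changed sign, and of 477 named genes 140 moved by over 0.1 on the log2 scale with a pseudocount of 1 FPKM and 42 with 0.01 FPKM. The male soma list, with 3 members, had its median turn to -0.49 with at least 5 FPKM, where only *swm-1* was left. Precision per value is unknown, since neither counts nor library values were used, and the wider spread of ratios below 10 FPKM limits what can be read from low genes.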

Other observations

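The 32 proteasome subunits had a median log2 ratio of -0.01 in *ppp-1(wrm15)* polysomes, with *pas-5* at 424 FPKM in both genotypes. Of 22 chaperones and folding enzymes of the endoplasmic reticulum, 21 were higher, by a median of 0.11 on the log2 scale and none past 2-fold. Of 19 cytosolic heat shock genes, 14 were lower, by a median of -0.08, and 1 was past 2-fold, *hsp-16.48* with 0.142 FPKM in *ppp-1(wrm15)* and 1.34 FPKM in WT polysomes. *hsp-16.48* passed the minimum only through WT, where it is high. Of all protein-coding members, 0.855% were at least 2-fold lower. The embryonic small heat shock gene *sip-1* had 1076 FPKM in *ppp-1(wrm15)*, 831 FPKM in *ppp-1(wrm10)* and 898 FPKM in WT polysomes. *lea-1*, a late embryogenesis abundant-type gene linked to desiccation, had 213 FPKM in *ppp-1(wrm15)*, 145 FPKM in *ppp-1(wrm10)* and 142 FPKM in WT polysomes. Of 129 nuclear hormone receptor genes, 86 were lower, with a median of -0.09 and 1 past 2-fold. Of 32 glutathione S-transferase genes, 25 were lower, with a median of -0.23 and none past 2-fold. *gst-4*, a target of SKN-1, had 20.5 FPKM in *ppp-1(wrm15)* and 28.3 FPKM in WT polysomes.

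Loci whose names join several genes were not members. Of 246 such loci past the same minimum, 7 were at least 2-fold higher in *ppp-1(wrm15)* polysomes and 2 lower, with a median log2 ratio of -0.04. The most abundant of the 7, F25B3.4,F25B3.5 on chromosome V, had 19.9 FPKM in *ppp-1(wrm15)* and 6.93 FPKM in WT polysomes.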
